A study of Mus musculus with 4 samples.

Results

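Cathepsin E (Ctse) and 9 further cathepsins (Ctsa, Ctsb, Ctsc, Ctsd, Ctsh, Ctsk, Ctsl, Ctss and Ctsz) were followed in lymphoid-primed multipotent progenitors (LMPPs), early bone marrow cells that still make lymphoid and myeloid progeny. A probe set, the group of short probes whose signals are summarised to 1 value, was taken where its platform gene symbol was exactly 1 of these names. All 10 genes were found, of 18193 genes with a probe set of their own, and they had 22 of the 45037 probe sets. Ctse was picked because its values were far lower in both Lyl1-null arrays than in both wild-type arrays. Its difference between the genotypes is therefore described and not tested. The other 9 were picked by family, with earlier results of the same arrays known, to show whether the difference was shared.

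Lyl1-null LMPPs (2 arrays, KO 1 and KO 2) were compared with wild-type LMPPs (2 arrays, WT 1 and WT 2), all from C57Bl/6 mice of 6 to 8 weeks. In both groups the cells were sorted from marrow as lineage-negative, c-Kit+, Sca-1+ and high in Flt3, without culture. The labels refer the Lyl1 allele to an earlier publication, and they give neither the number of mice behind an array nor whether the 2 arrays of a group used different mice. Every p-value rests on the spread between arrays, which may therefore be technical in wild type. In the KO group it also holds a difference in material, since KO 1 and KO 2 differed in X-linked and Y-linked transcripts and in Lyl1 (below). Values are on the log2 scale of RMA (robust multi-array average), so that a difference of 1 is a 2-fold change.

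Lyl1 encodes a basic helix-loop-helix factor of blood progenitors. Its probe set read 5.14 in the array labelled KO 1 and 10.32 in the array labelled KO 2, against 12.34 and 12.29 in wild type. The signal in KO 2 was 25.1% of that in wild type, against the label of this array. Where this probe set lies relative to the deleted part of the gene is not stated in the labels. In KO 1 it was −7.17 from the wild-type mean, so it can show a loss of Lyl1 signal. KO 2 did not share that loss in full. The array KO 2 also stood apart in Xist, an RNA of the silenced X chromosome (6.16 in KO 1 and 14.26 in KO 2, against 6.30 and 5.81 in wild type). The Y-linked Eif2s3y read 10.07 in KO 1 and 8.44 in KO 2, against 10.15 and 10.12 in wild type. The number of genes at least 2-fold away from KO 2 was 518 to 859 in any other array, where the other 3 differed from each other in 42 to 128. KO and Lyl1-null below mean the arrays so labelled, and the values of both KO arrays are given for the 10 cathepsins. The genotype of KO 2 is not settled, so that each KO mean may join unlike samples. Of the sorting and progenitor markers, Kit, Flt3, Cd34 and Cd27 were above the expression filter (5.69, the median of all probe-set means) in all 4 arrays. Kit, Flt3 and Cd34 were lower in both KO arrays than in both wild-type ones, as were 24% of all genes tested, and Cd27 was not. Ly6a was not analysed here.

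Cathepsins are proteases that mostly work in lysosomes and endosomes, and most are made as inactive precursors that mature at low pH. They fall into aspartic (Ctsd, Ctse), serine (Ctsa) and cysteine (the other 7) proteases, named for the catalytic residue. Cathepsin E is unusual in its narrow expression, known from gastric epithelium, red cell precursors and antigen-presenting cells, where it sits in endosomes rather than in lysosomes. Cathepsin D is its close relative and is a general lysosomal enzyme of nearly all cells. The cysteine cathepsins degrade proteins in lysosomes, trim the invariant chain of class II molecules and, in the case of cathepsin C, activate granule proteases of myeloid and lymphoid effector cells.

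RefSeq promoter windows (assembly GRCm38.p6, 250 bases before to 50 after a transcript start) were at hand for 7 of the 10 genes, 8 windows in all. Those of Ctsa and Ctsd are shown, chosen after their values were seen, because both genes read lower in the array labelled KO 2 and not in the array labelled KO 1. Capitals mark the letters CACGTG, which read the same on both strands. CACGTG lies inside the longer TCACGTGA, the type of element through which the lysosomal regulator Tfeb is known to act. The Ctsa window is chr2:164833523-164833822 on the plus strand and that of Ctsd is chr7:142387778-142388077 on the minus strand.
Ctsa: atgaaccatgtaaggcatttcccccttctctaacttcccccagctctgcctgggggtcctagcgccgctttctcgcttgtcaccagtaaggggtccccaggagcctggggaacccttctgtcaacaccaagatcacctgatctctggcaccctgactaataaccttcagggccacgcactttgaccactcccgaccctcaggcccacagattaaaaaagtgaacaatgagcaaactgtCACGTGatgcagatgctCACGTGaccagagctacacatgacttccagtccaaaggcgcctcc
Ctsd: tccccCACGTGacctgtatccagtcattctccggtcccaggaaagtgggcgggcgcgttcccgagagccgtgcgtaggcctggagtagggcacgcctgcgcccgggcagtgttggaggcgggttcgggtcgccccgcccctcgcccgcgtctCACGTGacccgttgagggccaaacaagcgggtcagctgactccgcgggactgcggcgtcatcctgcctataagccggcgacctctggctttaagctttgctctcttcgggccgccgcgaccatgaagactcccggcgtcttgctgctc

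TCACGTGA was found 2 times in the Ctsa window and 1 time in the Ctsd window, and in 0.974% of all 32851 windows. CACGTG was found 2 times in each of both, 1 time in the window of Ctsl and in 7.15% of all windows. The windows of Ctsc, Ctsk, Ctss and Ctsz and a second, upstream window of Ctsa held neither. These matches are a description of the letters and not of a bound site. Tfeb read 7.42 and 7.54 in KO, against 7.35 in each wild-type array, and its part in the cathepsin values was not tested.

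Ctse, on chromosome 1, had the widest separation of the family. Its probe set 1418989_at read 7.22 and 7.51 in the arrays labelled KO 1 and KO 2, against 11.32 and 11.44 in wild type. Both KO arrays lay far below both wild-type ones, and the gap within each group was small, 0.30 between the KO arrays and 0.12 between the wild-type arrays. The means were 7.37 ± 0.21 in the arrays labelled KO and 11.38 ± 0.08 in wild type (SD, n = 2 each), a log2 difference of −4.02, a 16.2-fold lower value. Taken pair by pair, the KO-minus-wild-type differences ran only between −4.22 and −3.81. The KO values still lay above the filter of 5.69. In a bulk sample, fewer Ctse-expressing cells and less Ctse RNA per cell cannot be told apart.

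The 2 KO arrays, which differed widely in Lyl1, had near values of Ctse. Ctse differed from the wild-type mean by −4.16 in the array labelled KO 1 and by −3.87 in the array labelled KO 2. Lyl1 itself differed there by −7.17 and −1.99.

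The second Ctse probe set, 1427797_s_at, was dim. It read 4.15 and 4.75 in the KO arrays, against 4.81 in each wild-type array, all under the filter. Its difference of −0.36 had the same sign, and its 2 KO arrays were further apart (0.61) than the KO and wild-type means. Averaging both probe sets gave a Ctse difference of −2.19.

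**Figure D1:**
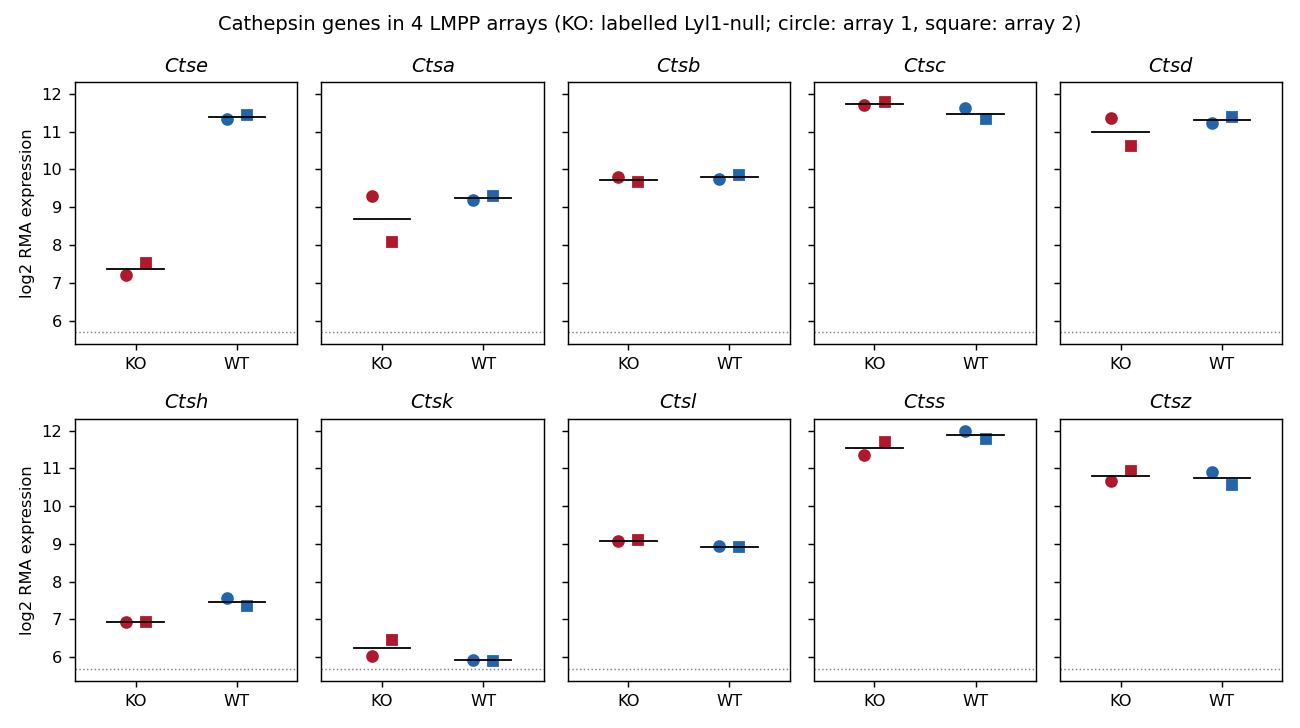
Levels of the 10 cathepsin genes, each read from its brightest probe set, as log2 RMA expression (vertical axis). Points are arrays (circles for replicate 1, squares for replicate 2), black lines are group means (n = 2) and the dotted line is the filter at 5.69. Ctse has group means of 7.37 in KO and 11.38 in WT, and Ctsa and Ctsd have 1 low KO array each.

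The other aspartic member, Ctsd, was near the wild-type values in 1 of the 2 KO arrays. It read 11.36 and 10.61 in the KO arrays, against 11.24 and 11.39 in wild type. The array labelled KO 1 lay between the wild-type arrays and the array labelled KO 2 lay below both. The difference was −0.33 (SE 0.28, 95% interval −1.02 to 0.36), and it was 0.04 in the array labelled KO 1 and −0.70 in the array labelled KO 2.

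Ctsa, a serine carboxypeptidase that also protects lysosomal beta-galactosidase and neuraminidase, was likewise low in 1 of the 2 KO arrays. Its values were 9.30 and 8.08 in the KO arrays, against 9.20 and 9.29 in wild type. Only the array labelled KO 2 was low, by −1.16 from the wild-type mean, whereas the other KO array differed by 0.05. The gap of 1.22 between the 2 KO arrays was reached by 2.42% of the 11196 genes above the filter, and the Ctsd gap of 0.74 by 10.5%. With both KO arrays, the Ctsa difference was −0.55 (SE 0.40, 95% interval −1.55 to 0.44). A second Ctsa probe set under the filter had a positive difference of 0.26.

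Among the 7 cysteine cathepsins of the set, Ctsh, an aminopeptidase, had the lowest KO values relative to wild type. It read 6.95 and 6.94 in the KO arrays, against 7.57 and 7.37 in wild type. Both KO arrays lay below both wild-type ones, and they were nearly equal. The difference was −0.53 (SE 0.17, 95% interval −0.94 to −0.11), a 1.44-fold lower value, and the second Ctsh probe set gave −0.64. The brighter Ctsh probe set is of the x_at kind and the brightest of Ctsz of the s_at kind, which can also bind related transcripts, whereas the second Ctsh probe set is not. The unadjusted interval leaves out 0, and Ctsh did not pass after adjustment over all genes.

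Ctss, the main invariant-chain protease of antigen-presenting cells, was also lower in both KO arrays. Its values were 11.37 and 11.69 in KO, against 11.99 and 11.78 in wild type. The nearest arrays of the 2 groups were 0.09 apart, less than the gap of 0.21 between the wild-type arrays. The difference was −0.36 (SE 0.19, 95% interval −0.84 to 0.13).

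Ctsc, Ctsk and Ctsl had higher values in both KO arrays, by small amounts. Ctsc, the dipeptidyl peptidase that activates granule proteases, read 11.70 and 11.78 in KO, against 11.62 and 11.33 in wild type (difference 0.27, SE 0.18). Ctsk, best known as the collagen-degrading enzyme of osteoclasts, read 6.03 and 6.45 in KO, against 5.92 and 5.91 in wild type (difference 0.32, SE 0.20). Ctsl, a lysosomal endopeptidase, read 9.07 and 9.10 in KO, against 8.96 and 8.91 in wild type (difference 0.15, SE 0.16). The Ctsk values lay near the filter, and most of its difference came from the array labelled KO 2 (0.53, against 0.11 in the other KO array). The 95% intervals of all 3 differences held 0, and they reached up to 0.72 for Ctsc, 0.82 for Ctsk and 0.54 for Ctsl.

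Ctsb and Ctsz, a lysosomal endopeptidase and a carboxypeptidase, overlapped between the groups. Ctsb read 9.79 and 9.67 in KO, against 9.74 and 9.87 in wild type (difference −0.08, SE 0.16). Ctsz read 10.66 and 10.93 in KO, against 10.90 and 10.57 in wild type (difference 0.06, SE 0.20). The sign of Ctsb turned with quantile normalization (0.02). That of Ctsz was negative in its other 2 probe sets (−0.11 and −0.17) and with median centring (−0.01). No direction is given for either gene.

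**Figure D2:**
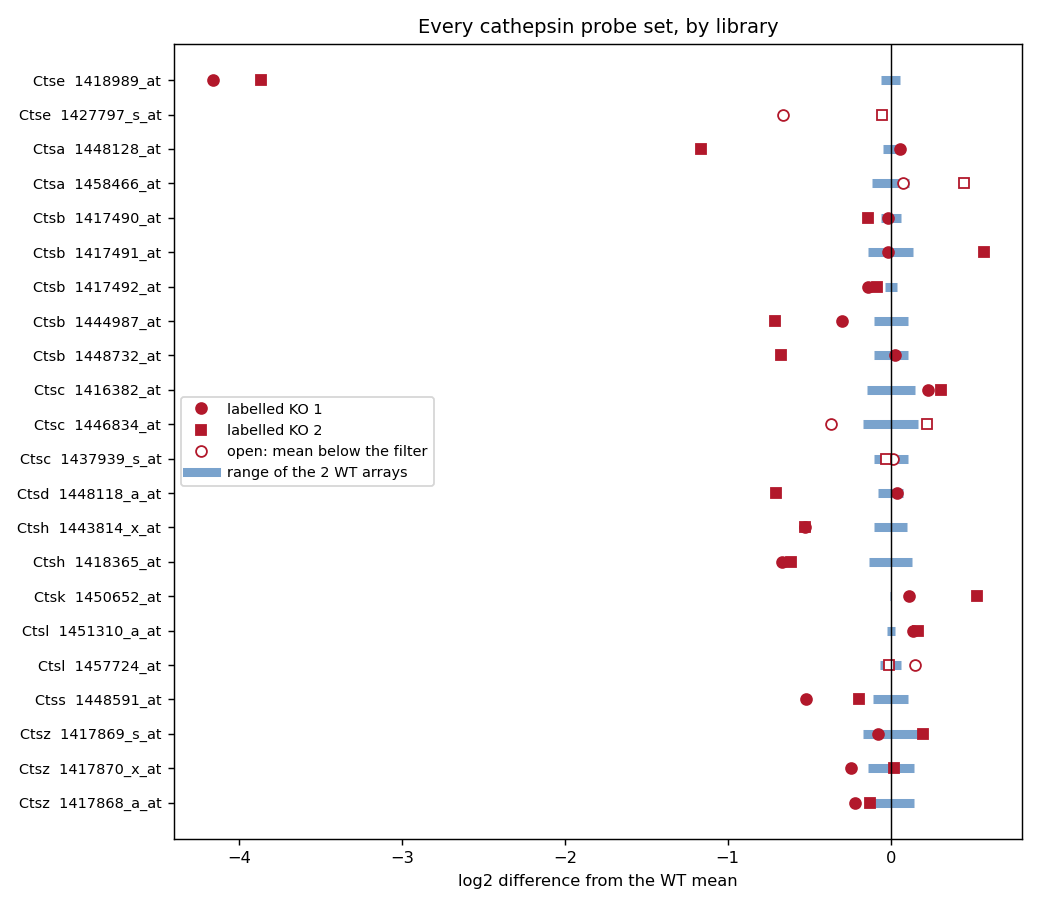
Log2 difference from the wild-type mean (horizontal axis) of all 22 cathepsin probe sets. Red circles and squares are the arrays labelled KO 1 and KO 2, open symbols are probe sets with a mean under the filter of 5.69, and blue bars span the 2 wild-type arrays. Only 1418989_at of Ctse lies near −4, and the 20 probe sets of the other genes have mean differences between −0.64 and 0.32.

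The rest of the family was also read over all its probe sets. The 20 probe sets outside Ctse had mean differences from −0.64 to 0.32, 13 of them negative and 7 positive, with a median of −0.09. Over all genes tested, the 5th and 95th percentiles of the difference were −0.60 and 0.42. In KO 2 alone, the differences of these probe sets reached −1.16, for Ctsa. Probe sets of 1 gene did not always run together. The 5 Ctsb probe sets, all above the filter, had differences of −0.08, 0.28, −0.11, −0.50 and −0.32, and the most extreme single values in both directions were those of the array labelled KO 2. All 10 genes passed the filter through their brightest probe set, and 5 of the 22 probe sets lay under it.

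In the comparison of all genes with limma, adjusted p under 0.05 was reached by 0.00893% of genes, 1 of 11196, and that gene was Ctse. Since its difference chose it, nothing is read from this call. Of the other 9 cathepsins, 0 passed (adjusted p between 0.644 and 0.919 with limma), nor did any of their 16 probe sets above the filter when all 18848 such probe sets were tested (0.0106% called, 2 with an unadjusted p under 0.05, both of Ctsh). Of the 9 genes, 1, Ctsh, had an unadjusted p under 0.05, against 6.84% of all genes. The median difference of the 9 was −0.08, beside −0.05 over all genes tested, with 4 positive and 5 negative. The 7 cysteine cathepsins had 4 positive and 3 negative differences with a median of 0.06. The median of the 9 was 0.04 for KO 1 (all genes −0.01) and −0.14 for KO 2 (all genes −0.08). Groups that did not overlap were found for 2 of the 9 with KO lower (24% of all genes) and for 3 of the 9 with KO higher (18.7% of all genes).

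Leaving out 1 KO array changed the calls among the 9. Without the array labelled KO 2, 0 of the 9 passed with limma, where 0.196% of all genes did. The widest differences there were those of Ctsh (−0.52) and Ctss (−0.52), both lower, and the highest was that of Ctsc (0.23). Without the array labelled KO 1, 2 passed, Ctsa (−1.16) and Ctsd (−0.70), both lower, where 14.8% of all genes passed. In the same fit Ctsk was higher (0.53) and Ctsh was lower (−0.53). Each of these fits leaves a single KO array, which is assumed to vary like the wild-type ones.

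The cathepsins outside these 10 mostly lay under the filter. Of 13 in the list, 8 were under the filter in all 4 arrays, most of them known from placenta. The 4 tested ones were Ctso, Ctsg, Ctsf and Ctsw. Ctso, a little-studied cysteine cathepsin, read 8.54 and 8.16 in KO, against 8.86 and 8.94 in wild type (difference −0.55, SE 0.19). Ctsg, the serine protease of neutrophil granules, read 11.00 and 11.04 in KO, against 11.75 and 11.35 in wild type (difference −0.53, SE 0.20). Of these 4, 3 lay lower in both KO arrays than in both wild-type ones, where 24% of all genes did so, and 0 passed over all genes with limma (2 at an unadjusted p under 0.05, as were 6.84% of all genes).

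Of the other aspartic proteases of the pepsin family, 2 were tested. Bace2, Pgc, Pga5 and Cym were under the filter in all arrays. Napsa, napsin A, read 10.85 and 9.65 in KO, against 10.82 and 10.94 in wild type, so that the array labelled KO 2 alone was low. Bace1, the beta-secretase, read 9.32 and 8.53 in KO, against 8.86 and 8.93 in wild type, with the KO arrays on either side. Neither passed with limma, and 0 of these 2 had an unadjusted p under 0.05.

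Inhibitors of cathepsins and the substrates of cathepsin C had 0 members past the threshold with limma. Of 4 inhibitors tested, 3 had a negative difference, as had 6374 of the 11196 genes tested. An unadjusted p under 0.05 was reached by 1 of the 4, where 6.84% of all genes reached it. This was Serpinb6a, an intracellular serpin (7.54 and 7.07 in KO, against 7.97 and 7.86 in wild type, difference −0.61). Cystatin F (Cst7), an inhibitor that acts inside lysosomes of blood cells, differed from the wild-type mean by 0.42 in KO 1 and by −0.16 in KO 2. Of 8 proteases that cathepsin C activates, 5, the granzymes and mast cell proteases, were under the filter in all arrays. The 3 tested were Ctsg and the neutrophil proteases Prtn3 and Elane, with differences of −0.53, −0.11 and −0.02. Prtn3 differed by 0.17 in KO 1 and by −0.39 in KO 2, and Elane by −0.11 in KO 1 and by 0.07 in KO 2. Of the 3, 1 (Ctsg) had an unadjusted p under 0.05, as had 6.84% of all genes.

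Lysosomal genes in general were centred near no difference. Of 23 hydrolases and membrane proteins tested, 9 were positive and 14 negative, with a median of −0.02, and 0 passed with limma. The 1 gene at an unadjusted p under 0.05, where 6.84% of all genes were, was Acp5. The widest differences were those of Acp5, tartrate-resistant acid phosphatase (5.98 and 6.49 in KO, against 5.38 and 5.04 in wild type, difference 1.03), and of the dipeptidyl peptidase gene Dpp7 (0.16 in KO 1 and 0.72 in KO 2). Acp5 was under the filter in both wild-type arrays and entered the test through its KO values. Neither its difference nor its unadjusted p is therefore support for the list. Of 13 genes of lysosomal sorting and biogenesis, 9 were positive and 4 negative, with a median of 0.06. Of these, 0 passed and 1 had an unadjusted p under 0.05, as had 6.84% of all genes. Atp6ap1, an accessory subunit of the proton pump that acidifies lysosomes, read 10.42 and 8.33 in KO, against 10.28 and 10.65 in wild type. Gnptab, which makes the mannose-6-phosphate tag that sends cathepsins to lysosomes, read 7.38 and 6.58 in KO, against 7.72 and 7.93 in wild type. The low value of Atp6ap1 belonged to the array labelled KO 2, the same one that was low for Ctsa, Ctsd and Napsa. These lysosomal lists were not low as a whole in that array. Its median differences were −0.06 for hydrolases and membrane proteins and 0.06 for sorting and biogenesis, and Dpp7 was higher there. Other lists, of 2 to 9 tested genes, had lower medians in KO 2. These were −0.50 for the further cathepsins, −0.80 for the pepsin family and −0.34 for inhibitors. They were −0.39 for proteases activated by cathepsin C and −0.41 for class II antigen processing, beside −0.08 over all genes. In KO 1 the medians were −0.30, 0.20, 0.13, −0.11 and −0.05 in the same order, beside −0.01 over all genes.

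Class II antigen processing, where cathepsins E and S are known to work, had 9 genes tested, 4 positive and 5 negative, with a median of −0.10 and 0 past the threshold with limma (0 at an unadjusted p under 0.05). H2-Ob, a chain of the class II accessory protein H2-O, read 10.14 and 9.65 in KO, against 10.29 and 10.44 in wild type. H2-Oa, its partner chain, read 8.33 and 7.96 in KO, against 8.48 and 8.68 in wild type. The differences were −0.47 and −0.44. Of the 9 genes, 4 (both chains, Cd74 and H2-Aa) lay lower in both KO arrays than in both wild-type ones, where 24% of all genes did.

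**Figure D3:**
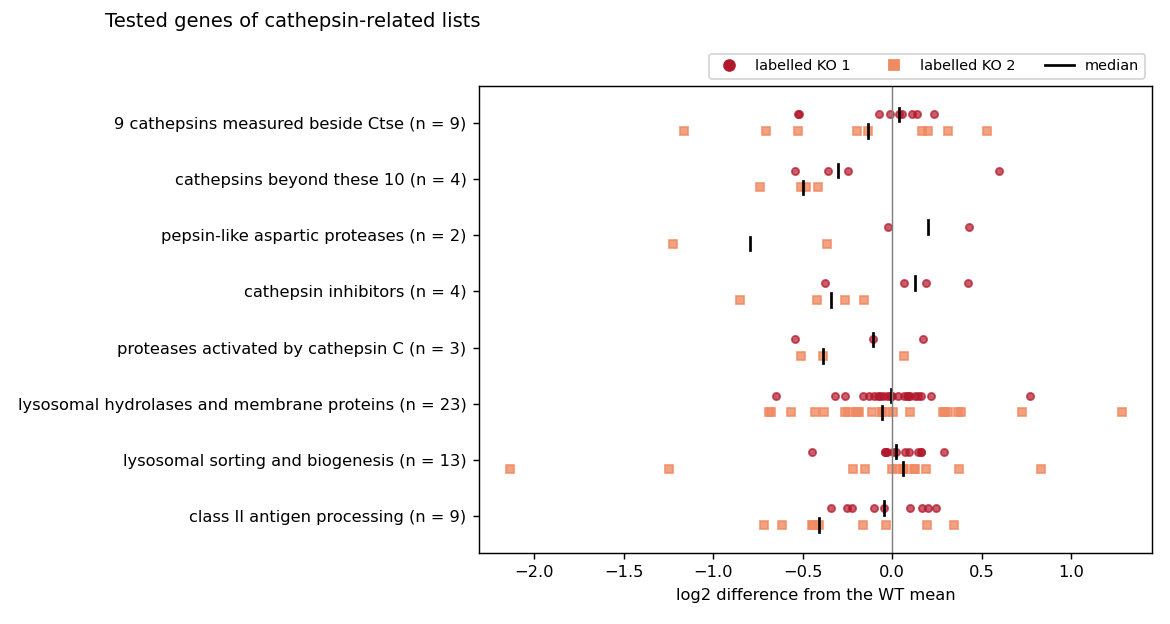
Log2 difference from the wild-type mean (horizontal axis) of every tested gene in 8 lists of cathepsin-related genes. Circles are the array labelled KO 1, squares the array labelled KO 2, and black ticks the list medians. For the 9 cathepsins measured beside Ctse the medians are 0.04 and −0.14, and no gene of any list reaches the −4 of Ctse.

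Cells that are known to make Ctse or much of the other cathepsins were read from marker genes. Erythroid markers had a summed level (log2 of the summed linear values) of 8.61 and 9.16 in the KO arrays, against 9.84 and 8.48 in wild type, with 6 of the 8 markers read from probe sets of their own. The highest and the lowest of these sums were both wild-type arrays. Of 5 erythroid markers tested, 2 had a positive and 3 a negative difference. Only 1, Car1, lay lower in both KO arrays (6.71 and 6.76) than in both wild-type ones (8.57 and 7.18), as did 24% of all genes. Monocyte and macrophage markers summed to 11.47 and 11.40 in KO, against 11.46 and 11.57 in wild type. The macrophage markers Adgre1 and Mertk were under the filter throughout.

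Dendritic markers summed to 8.49 and 8.67 in KO, against 8.19 and 8.13 in wild type, with Cd209a, Batf3 and Xcr1 under the filter in all arrays. B cell markers summed to 10.09 and 9.86 in KO, against 9.79 and 9.81 in wild type, with Ms4a1, Pax5 and Cr2 under the filter. Cd79b carried most of the B cell sum (9.86 and 9.54 in KO, against 9.55 and 9.53 in wild type). Neutrophil markers summed to 10.83 and 10.54 in KO, against 9.20 and 8.68 in wild type, with all 4 tested markers higher in both KO arrays, where 18.7% of all genes tested were. Ltf was among the 4 and was under the filter in both wild-type arrays. T and NK cell markers summed to 11.76 and 11.57 in KO, against 11.40 and 11.34 in wild type. Nkg7 carried most of this sum (11.66 and 11.42 in KO, against 11.24 and 11.18 in wild type), while Klrd1 had lower values in KO (6.17 and 6.26, against 6.98 and 6.96 in wild type). Mast cell and basophil markers summed to 7.92 and 7.54 in KO, against 8.42 and 8.07 in wild type. The part of these cell types in the cathepsin values was not tested.

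The genes whose profile over the 4 arrays lay nearest to that of Ctse were Cxcr4, Hmga2, Ankrd6, Chl1 and Ptprv. Nearness was the root mean square distance between the 4 log2 values, each relative to the gene's wild-type mean. It was 0.93 for the chemokine receptor Cxcr4, 1.01 for the chromatin factor Hmga2, 1.15 for Ankrd6, 1.43 for the adhesion molecule Chl1 and 1.53 for Ptprv. Even the nearest, Cxcr4, had a smaller difference, with 8.80 and 9.11 in KO, against 11.64 and 11.67 in wild type. Likeness over 4 arrays is a description and carries no test.

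Ctse shares chromosome 1 with Cxcr4 and Ptprv. The 10 tested genes nearest to Ctse in order, 5 on each side, had differences between −0.33 and 0.92 with a median of −0.03, 6 of them negative. The highest was Rab7b, the next tested gene along and a small GTPase of late endosomes and lysosomes. It read 6.60 and 6.69 in KO, against 5.85 and 5.59 in wild type (difference 0.92, limma adjusted p = 0.513).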

How the data were processed

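The deposited values are log2 expression values; per the submitters' processing notes the authors used RMA, and the sources used here give neither its version nor whether other arrays were normalized together with these 4. The values were used as deposited. Gene names came from the platform annotation: 34945 of 45037 probe sets had 1 symbol, 932 had several and 9160 had none, and the last 2 kinds were left out. A gene was read from its probe set with the highest mean and tested if this mean was at or above 5.69, the median over all probe sets, which left 11196 of 18193 genes. Groups were compared with limma 3.58.1 in R 4.3.3 (lmFit and eBayes, two-sided, Benjamini-Hochberg adjustment over all genes tested at 0.05). SE and 95% intervals use the moderated variance, and 4 arrays limit their precision. The fit was run on simulated data in which all arrays varied alike. Since the array labelled KO 2 stood apart here, that run is no check of the fit on these data. The genes, lists and tests were chosen with earlier results of these data known. Named genes were the 10 cathepsins, Lyl1, the 5 nearest profiles and the 2 widest tested differences of each list. Ctsf, Ctsw, Elane, Tfeb, the other 2 Ctsz probe sets and Rab7b were described after their values were seen. Alternatives covered the filter, the probe-set rule, normalization, variance prior, array weights, the threshold, a replicate block and each library left out.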

Additional observations from a re-analysis of the deposited data

How the results depend on the processing

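The 0 calls among the 9 cathepsins beside Ctse held under 15 of 16 alternatives and became 2 without the array labelled KO 1, so that leaving out 1 array gave 0 to 2. Their median difference ranged from −0.14 to 0.04 with 1 array left out and was 0.02 with quantile normalization, −0.15 with median centring and −0.15 with the mean of probe sets. The Ctse difference stayed between −4.16 and −3.87 with 1 array left out, and the mean of its probe sets gave −2.19. The count of genes called, 1 with all arrays, was 4 without a filter, 2 over all probe sets, 0 with the mean of probe sets (limma), 2 with quantile normalization, 2 with median centring, 4 with a trended prior, 5 with array weights and 6 at a threshold of 0.10. It ran from 1 to 1652 with 1 array left out: 22 without KO 2, 1652 without KO 1 and 2 without WT 2. With the replicate number as a block it was 3. The numbers are not known to pair the samples: the deviations of same-numbered arrays correlated at −0.41 over genes with 2 pairs. Crossing the numbers, added after the data had been seen, gave 1. Of 90 recomputed differences of single cathepsins, 7 changed sign, 4 of them for Ctsz and 1 each for Ctsa, Ctsb and Ctsd. All probe sets, array weights and the replicate block could not move these differences, so they say nothing of stability. The first reads the same brightest probe set, weights are equal within a group of 2 arrays, and the block is balanced.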
